A study of Homo sapiens with 6 samples.

Results

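The transcripts described here are 39 autophagy and lysosome genes, out of 58676 gene IDs in the deposited table. They were taken by symbol, each matched to 1 Ensembl ID through GENCODE release 29, and all 39 passed the filter on low values that left 15408 genes to test. A human cell line labelled HCC, not named further and grown in DMEM with serum, was sequenced as total RNA in 6 libraries. Of these, 3 carry the genotype label knockdown and sponge titles, and 3 carry the label control. The series title speaks of treatment with miR-19a, whereas the samples are labelled knockdown and sponge, and the labels do not settle whether that microRNA was raised or lowered. A sponge is a transcript that holds sites for a microRNA and so occupies it. The labels describe neither the sponge vector nor what the control cells received, nor whether a group is 1 clone. They also do not say that replicates were grown apart, so a p-value here reflects variation among these libraries and that variation may be technical.

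Values are RPKM, reads per kilobase of annotated exon, scaled to the total of assigned reads in each library. Knockdown replicate 2 was left out, because its numbers are not in the order of the IDs. Its Spearman's rho with each of the other libraries, across all genes, was 0.017 to 0.019, against 0.82 to 0.89 among those. This leaves knockdown replicates 1 and 3, with 9296308 and 15198231 assigned reads recovered from the RPKM, and control replicates 1, 2 and 3, with 9181567, 1948940 and 19605312. Control replicate 2 is the shallowest, and it was the lowest control for 29 of the 39 genes. That count was not made over all genes, so whether it is particular to these genes is not known. All 10 hepatocyte markers examined were present, with summed levels of 1695 to 1767 RPKM in knockdown and 1528 to 1908 RPKM in control. Of 9 blood and immune markers 2 reached the filter (CD14 and LYZ), CD163 and MARCO were at 0, and the sums were 40.5 to 46.6 RPKM in knockdown and 40.6 to 47.4 RPKM in control. Of 7 fibroblast and stellate markers 4 reached the filter, with sums of 68.6 to 72.8 RPKM in knockdown and 63.9 to 84.2 RPKM in control, most of it from LUM. Among markers that reached the filter, the groups were apart upward in knockdown for SERPINA1, TF, COL1A1 and COL1A2. They were apart downward for APOB, PDGFRA and the endothelial marker PECAM1, and the last 2 reached the filter through the controls alone. Of all genes tested 14.3% were apart upward and 13.6% downward. COL1A2, a collagen chain, had 14.72 and 12.02 RPKM in knockdown, against 8.79, 7.54 and 11.72 RPKM in control. Of 6 endothelial markers 1 reached the filter, KDR and TEK were at 0, and the sums were 0.418 to 0.424 RPKM in knockdown and 0.534 to 0.760 RPKM in control. The endothelial sums did not overlap, at a level close to 0, and the part of these markers and of depth in the results was not tested.

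Autophagy encloses cytoplasm in a double membrane that fuses with the lysosome. The ULK1 kinase and the BECN1 lipid kinase complex start it, WIPI proteins read the lipid that this complex makes, and the ATG enzymes attach the ubiquitin-like LC3 and GABARAP proteins to the growing membrane, where cargo receptors dock. The lysosome then digests the content with acid hydrolases, at a pH set by the proton pump V-ATPase, and the transcription factors TFEB, TFE3 and MITF drive many of these genes through an E-box, CACGTG, near their start sites. In liver, autophagy turns over mitochondria, lipid droplets and protein aggregates.

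Lysosomal hydrolases had differences above 0 in 11 of 11 genes and autophagy factors in 13 of 17, and no gene of either kind passed the test. The difference used throughout is knockdown minus control on the log2(RPKM + 0.5) scale, which understates changes of low genes, and it was tested with limma across all 15408 genes. Limma called 0 genes at an adjusted p under 0.05, 0% of those tested, as did voom on the recovered reads, whereas voom with sample weights called 4, none of them among the 39. In limma the adjusted p of the 39 genes ran between 0.71 and 0.98. At an unadjusted p under 0.05, 1 of the 39 was higher, CTSB, against 3.8% of all genes tested, and 0 were lower, against 2.54%. The 2 knockdown libraries both exceeded the highest control for 15 of the 39 genes, or 38.5%, against 14.3% of all genes tested. Both lay below all 3 controls for 0 of the 39, against 13.6%. The difference was above 0 for 33 and below 0 for 6 of the 39, against 50% above 0 of all genes tested, and its median was 0.15 against 0.00. The 39 genes were chosen with earlier results of these data known, so these counts and shares describe the list and do not test it. In bulk RNA, fewer cells of a type and less RNA per cell cannot be told apart.

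The count of genes above 0 was lower without control replicate 2, and it fell more among autophagy factors than among hydrolases. Without that library 24 of the 39 differences were above 0 and 15 below, and the median was 0.09 while that of all genes was -0.04. Hydrolases were above 0 in 10 of 11 without it, and autophagy factors in 7 of 17, against 13 of 17 with all 5 libraries.

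**Figure D1:**
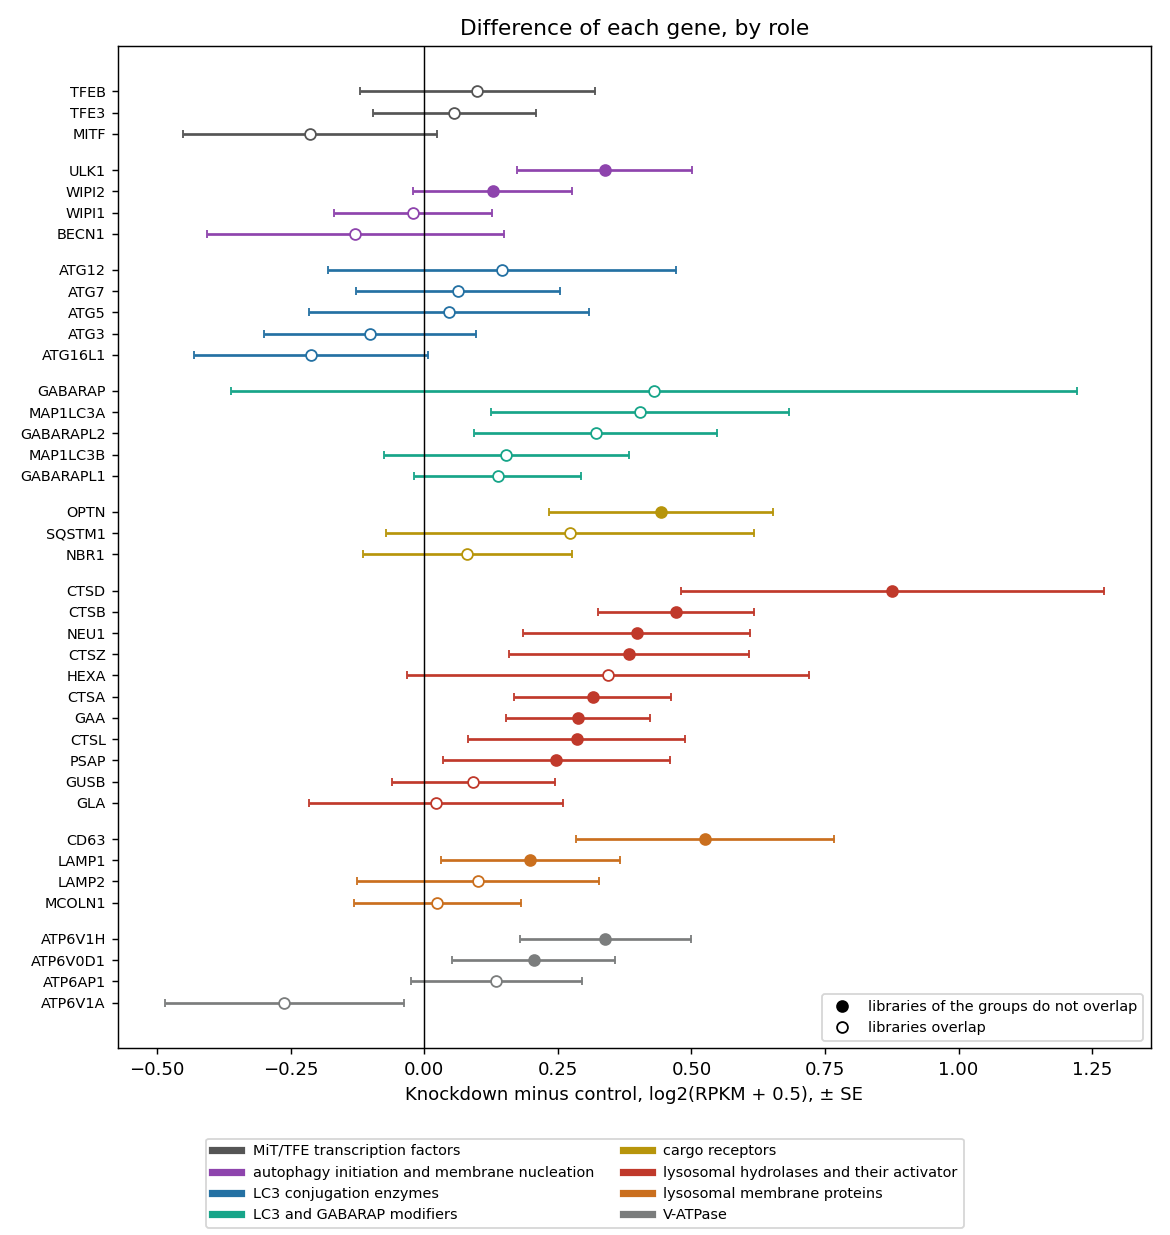
Difference of each of the 39 genes between knockdown and control (x axis, log2(RPKM + 0.5), bars ± SE from limma, 2 knockdown and 3 control libraries), ordered by role down the page. Filled circles mark the 15 genes with both knockdown libraries above all 3 controls, 8 of them hydrolases, and CTSD stands farthest to the right at 0.88.

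Levels spanned a wide range, and the 3 highest belonged to lysosomal genes. PSAP, the precursor of the saposin proteins that help hydrolases reach lipids, led with a mean of 336.7 RPKM over the 5 libraries. CD63, a tetraspanin of late endosomes and lysosomes, followed at 268.3 RPKM, and then CTSL at 92.9 RPKM and SQSTM1 at 76.5 RPKM. At the low end were TFEB at 1.08, MITF at 1.63, HEXA at 1.93, GABARAP at 2.80 and ATG7 at 3.24 RPKM. Of the 38 neighbouring pairs in this order, 34 had overlapping ranges over the 5 libraries, and the exceptions were CD63 over CTSL, MCOLN1 over WIPI2, ATP6V1H over ATG7 and MITF over TFEB. The scale divides by all annotated exon bases, 12611 for HEXA and 2366 for CTSL, so a gene with many annotated transcripts has a lower RPKM for the same number of reads.

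**Figure D2:**
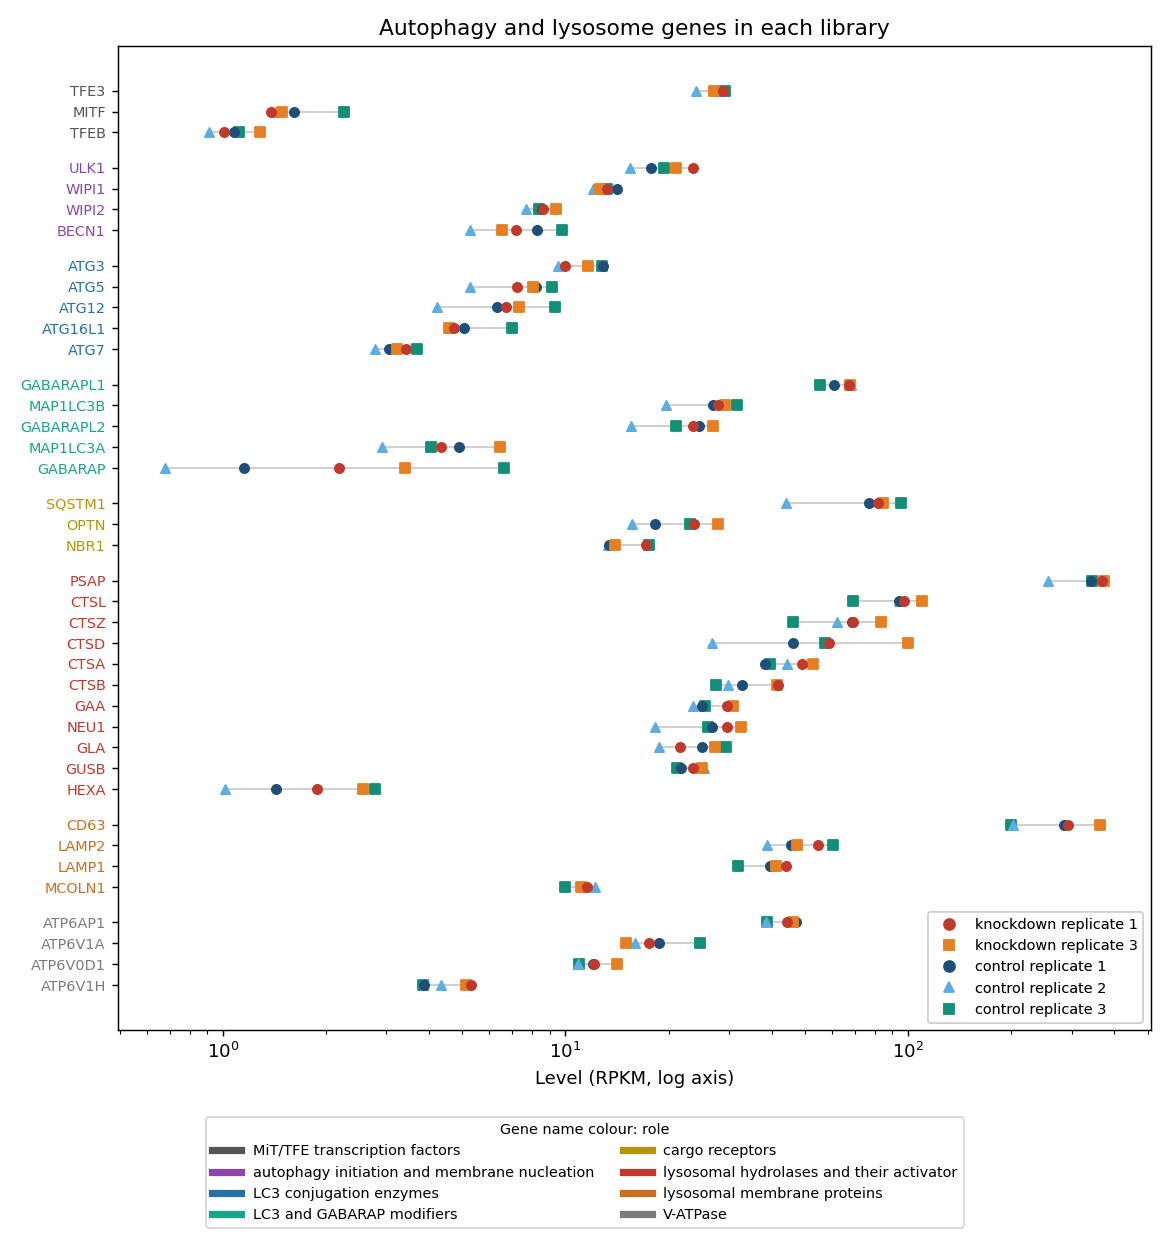
Level of each of the 39 genes in the 5 libraries (x axis, RPKM, log axis), grouped by role and ordered by mean level within a role. PSAP and CD63 lie farthest right, TFEB, MITF, GABARAP and HEXA farthest left, and the pale triangle of control replicate 2 is the lowest control in 29 rows.

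The hydrolases and their activator had a median difference of 0.32. In 8 of 11 the libraries of the 2 groups were apart, with knockdown higher, against 14.3% of all genes tested. Their summed level was 790.2 and 877.4 RPKM in knockdown replicates 1 and 3, against 722.3, 600.6 and 689.1 RPKM in control replicates 1, 2 and 3. The median was 0.17 once trends with exon length and GC content had been taken out of every library, and ran between 0.25 and 0.37 when each library was left out in turn. The 36 other hydrolases and activators, described below, had a median of 0.12, with 11 apart upward and 2 downward.

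CTSB, a cysteine protease on chromosome 8 (ENSG00000164733, 11842524 to 11869448 of GRCh38), had the smallest unadjusted p of the 39 genes. It was at 41.9 and 41.5 RPKM in knockdown replicates 1 and 3, against 32.7, 29.8 and 27.5 RPKM in control replicates 1, 2 and 3. Both knockdown values exceeded the highest control by more than the controls differed among themselves, and the group means were 41.7 ± 0.262 RPKM (SD, n = 2) and 30.0 ± 2.62 RPKM (SD, n = 3). The difference was 0.47 (SE 0.15) with an adjusted p of 0.71 in limma, and 0.41 to 0.53 with any 1 library left out.

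CTSD, an aspartic protease on chromosome 11 (ENSG00000117984, 1752752 to 1764573), had the largest difference of the 39, 0.88 (SE 0.40), with an adjusted p of 0.71 in limma. It stood at 58.6 and 99.6 RPKM in knockdown replicates 1 and 3, against 46.2, 26.8 and 57.2 RPKM in control replicates 1, 2 and 3. Knockdown replicate 1 lay barely above control replicate 3, and the gap rested on knockdown replicate 3 and control replicate 2. The difference was 0.50 without knockdown replicate 3, 1.26 when knockdown replicate 1 was left out, and 0.57 without control replicate 2. A protein-coding model on the same strand, AC068580.4, shares 1304 of the 3126 exon bases of CTSD and was at 0.0671 and 0.151 RPKM in knockdown and 0.0227 to 0.107 RPKM in control, so how reads were split between them is uncertain.

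The remaining cathepsins were apart by less. CTSA, a serine carboxypeptidase that also protects neuraminidase, had 48.95 and 52.67 RPKM in knockdown, against 38.31, 44.42 and 39.65 RPKM in control, a difference of 0.32 (SE 0.15). CTSZ, a carboxypeptidase of the cysteine protease family, had 69.1 and 83.6 RPKM in knockdown, against 68.7, 62.2 and 46.1 RPKM in control, a difference of 0.38 (SE 0.22). CTSL, a cysteine protease, had 97.4 and 109.9 RPKM in knockdown, against 94.2, 93.9 and 68.9 RPKM in control, a difference of 0.29 (SE 0.20). In CTSZ and CTSL knockdown replicate 1 lay close to control replicate 1, and control replicate 3 was the low library. Without control replicate 3 their differences were 0.22 and 0.14. CTSL reads could be shared with its pseudogenes, one of which, CTSLP8, was at 0.663 and 0.540 RPKM in knockdown and 0 to 0.447 RPKM in control.

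Among the glycosidases, NEU1 and GAA were apart and GLA, GUSB and HEXA overlapped. NEU1, the lysosomal sialidase on chromosome 6, had 29.6 and 32.4 RPKM in knockdown, against 26.7, 18.3 and 26.1 RPKM in control, a difference of 0.40 (SE 0.21) that was 0.22 without control replicate 2. GAA, the acid alpha-glucosidase that degrades lysosomal glycogen, had 29.54 and 30.90 RPKM in knockdown, against 25.03, 23.49 and 25.52 RPKM in control, a difference of 0.29 (SE 0.13). GAA varied little within each group, and its difference stayed between 0.25 and 0.32 with any 1 library left out. GLA, the alpha-galactosidase lacking in Fabry disease, had 21.66 and 27.36 RPKM in knockdown, against 24.99, 18.72 and 29.39 RPKM in control. GUSB, the beta-glucuronidase often used to normalise other genes, had 23.52 and 24.95 RPKM in knockdown, against 21.74, 25.45 and 21.13 RPKM in control, and its many pseudogenes may share its reads. HEXA, the alpha subunit of beta-hexosaminidase, had 1.88 and 2.56 RPKM in knockdown, against 1.43, 1.02 and 2.78 RPKM in control, where replicates 2 and 3 held 25 and 688 reads. The differences of GLA, GUSB and HEXA were 0.02 (SE 0.24), 0.09 (SE 0.15) and 0.34 (SE 0.38), and that of HEXA ran between 0.10 and 0.66 with 1 library left out. PSAP, the activator precursor, had 368 and 372 RPKM in knockdown, against 342, 257 and 345 RPKM in control, a difference of 0.25 (SE 0.21) that was 0.11 without control replicate 2.

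The E-box read by the TFEB family is in the promoters of 4 of the 8 hydrolase genes for which RefSeq's promoter table (GRCh38.p14, 250 bases before to 50 after each start) has an entry. These 4, CTSA, CTSD, GAA and NEU1, are also among the 8 with groups apart. Their windows are shown because they let the sequence be read beside the values above, with each CACGTG in capitals. The windows lie at chr20:45891085-45891384 (+ strand) for CTSA, chr11:1763878-1764177 (- strand) for CTSD, chr17:80101331-80101630 (+ strand) for GAA and chr6:31862772-31863071 (- strand) for NEU1.
CTSA promoter: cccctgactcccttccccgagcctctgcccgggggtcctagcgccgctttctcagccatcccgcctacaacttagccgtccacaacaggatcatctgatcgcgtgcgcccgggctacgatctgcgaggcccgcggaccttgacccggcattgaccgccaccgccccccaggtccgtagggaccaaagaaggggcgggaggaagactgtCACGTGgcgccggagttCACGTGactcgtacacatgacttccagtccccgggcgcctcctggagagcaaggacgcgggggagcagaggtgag
CTSD promoter: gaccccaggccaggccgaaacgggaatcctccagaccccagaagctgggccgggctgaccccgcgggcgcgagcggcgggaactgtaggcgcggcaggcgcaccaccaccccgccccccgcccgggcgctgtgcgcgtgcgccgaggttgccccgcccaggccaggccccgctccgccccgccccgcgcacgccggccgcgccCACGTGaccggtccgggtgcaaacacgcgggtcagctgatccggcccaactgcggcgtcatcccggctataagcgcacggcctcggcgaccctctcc
GAA promoter: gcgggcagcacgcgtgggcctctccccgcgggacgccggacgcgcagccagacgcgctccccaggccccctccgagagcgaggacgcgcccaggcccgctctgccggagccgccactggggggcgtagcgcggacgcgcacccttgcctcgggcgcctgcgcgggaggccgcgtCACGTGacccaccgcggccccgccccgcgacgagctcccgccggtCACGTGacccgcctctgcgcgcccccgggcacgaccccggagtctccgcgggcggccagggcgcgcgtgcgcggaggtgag
NEU1 promoter: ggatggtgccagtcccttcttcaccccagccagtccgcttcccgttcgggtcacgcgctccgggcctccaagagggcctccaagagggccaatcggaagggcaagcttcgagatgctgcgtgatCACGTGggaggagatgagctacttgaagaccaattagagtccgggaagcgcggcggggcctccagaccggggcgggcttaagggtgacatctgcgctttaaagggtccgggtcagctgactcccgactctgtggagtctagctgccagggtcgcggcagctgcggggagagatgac
Here CTSA and GAA each hold 2 matches and CTSD and NEU1 1 each, starting 42 and 25 bases before the annotated start in CTSA, 47 in CTSD, 76 and 31 in GAA and 126 in NEU1. CTSL, CTSZ, GLA and GUSB have windows with no match, and CTSL and CTSZ were nevertheless among the genes with groups apart.

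Membrane proteins of the lysosome divided, with CD63 and LAMP1 apart and LAMP2 and MCOLN1 overlapping. Their 4 differences were all above 0, with a median of 0.15 that ran between 0.07 and 0.23 with 1 library left out. CD63 had 292.1 and 362.1 RPKM in knockdown, against 286.0, 202.1 and 199.4 RPKM in control. Knockdown replicate 1 lay near control replicate 1, and knockdown replicate 3 was the highest of all. The difference was 0.53 (SE 0.24), and 0.37 without knockdown replicate 3. The antisense gene AC009779.2, which shares 237 exon bases with CD63, had 10.2 and 9.39 RPKM in knockdown and 8.68, 5.33 and 7.21 RPKM in control. Whether counting used strand is not given in the sources used here, so reads of the pair cannot be told apart.

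LAMP1, a heavily glycosylated protein that lines the lysosomal membrane, had 44.1 and 41.2 RPKM in knockdown, against 39.6, 40.3 and 31.8 RPKM in control, a difference of 0.20 (SE 0.17). Only control replicate 3 was clearly lower, and the difference was 0.09 without it. LAMP2, its relative and a receptor of chaperone-mediated autophagy in one isoform, had 54.6 and 47.3 RPKM in knockdown, against 45.5, 38.8 and 60.2 RPKM in control, a difference of 0.10 (SE 0.23). MCOLN1, the calcium channel that releases lysosomal calcium, had 11.6 and 11.1 RPKM in knockdown, against 11.3, 12.2 and 9.98 RPKM in control, a difference of 0.02 (SE 0.16).

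All 3 membrane protein genes with a promoter entry hold CACGTG, CD63 in 1 of its 8 windows. LAMP1 holds 6 matches in 1 window, more than any other of the 32 genes with a promoter entry, and is printed whole for that reason, from chr13:113296989-113297288 (+ strand). For CD63, MCOLN1, the V-ATPase gene ATP6V0D1 and the autophagy gene ATG3, the 30 bases around the first match are given, from chr12:55729172-55729201 (- strand), chr19:7522571-7522600 (+ strand), chr16:67481199-67481228 (- strand) and chr3:112561963-112561992 (- strand).
LAMP1 promoter: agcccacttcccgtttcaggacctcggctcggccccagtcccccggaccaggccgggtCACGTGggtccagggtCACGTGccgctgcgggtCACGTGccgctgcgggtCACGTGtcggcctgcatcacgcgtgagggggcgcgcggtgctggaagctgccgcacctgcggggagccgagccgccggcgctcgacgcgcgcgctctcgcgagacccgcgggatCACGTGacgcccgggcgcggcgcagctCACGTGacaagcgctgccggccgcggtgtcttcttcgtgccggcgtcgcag
CD63: ccgggtaggggcCACGTGgccctggccggg
MCOLN1: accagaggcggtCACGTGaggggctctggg
ATP6V0D1: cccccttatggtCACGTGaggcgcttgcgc
ATG3: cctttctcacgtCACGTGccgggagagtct
In LAMP1, MCOLN1, ATP6V0D1 and ATG3 at least 1 match has the longer form TCACGTGA, which reads the same on both strands, and in CD63 the flanking bases differ. In ATG3 the longer form is the second match, which is not printed, and the first match, printed above, is followed by C.

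**Figure D3:**
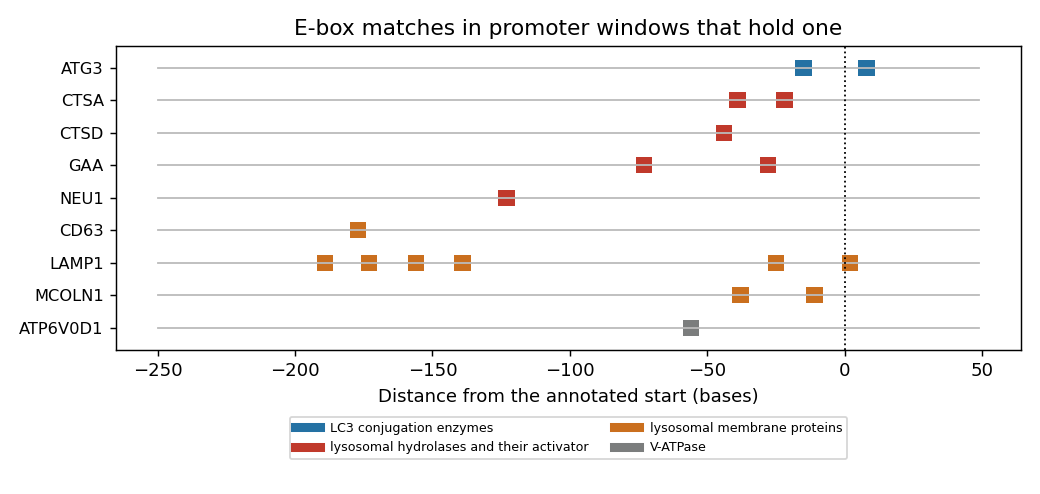
Position of each CACGTG match (coloured blocks) in the promoter windows that hold one, in bases from the annotated start (dotted line), with gene names on the y axis and colours for the role. LAMP1 has 6 matches, and 8 of the 9 genes are lysosomal.

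Counted over genes, 9 of 32 with a promoter entry hold CACGTG, or 28.1%, against 20% of 100 other pathway genes, 12.8% of 9777 genes tested and 8.77% of all 27305 genes in the promoter table. The motif reads the same on both strands and was searched once. The longer TCACGTG, searched on both strands and always containing CACGTG, was in 8 of 32, and TCACGTGA in 6 of 32. CACGTG was held by 8 of 13 hydrolase, membrane and V-ATPase genes, 1 of 16 autophagy factors (ATG3) and 0 of the 3 transcription factor genes. The 9 genes with CACGTG had a median difference of 0.29 with 7 of 9 apart, and the 23 without it 0.13 with 5 of 23 apart. Motif and role largely coincide in these genes, so a difference by motif cannot be told apart from one by role. Of all genes tested 14.3% were apart upward, and they were not split by motif. CTSB, PSAP, ATP6V1H, HEXA, MAP1LC3A, ATP6V1A and LAMP2 have no promoter entry and are in neither count, although CTSB, PSAP and ATP6V1H were apart. In the other pathway genes the medians were 0.09 for 19 genes with the motif, 5 of them apart upward, and 0.02 for 76 without it, 9 of them apart upward. A match is a description of the letters in the window and shows no binding.

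The transcription factors themselves lay close together in the groups. TFE3, at 28.8 and 27.1 RPKM in knockdown and 27.5, 24.1 and 29.2 RPKM in control, was by far the most abundant of the 3. Its difference was 0.06 (SE 0.15). TFEB had 1.01 and 1.28 RPKM in knockdown, against 1.08, 0.909 and 1.11 RPKM in control, a difference of 0.10 (SE 0.22). MITF, best known from melanocytes, had 1.38 and 1.48 RPKM in knockdown, against 1.61, 1.43 and 2.26 RPKM in control, a difference of -0.21 (SE 0.24). In control replicate 2 the TFEB value rests on 10 reads and that of MITF on 20. These proteins are known to be controlled largely by phosphorylation and movement to the nucleus, which RNA levels do not show.

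Among the genes that start autophagy, ULK1 and WIPI2 were apart and BECN1 and WIPI1 overlapped. ULK1 had 23.5 and 21.0 RPKM in knockdown, against 17.8, 15.4 and 19.4 RPKM in control, a difference of 0.34 (SE 0.16) that stayed between 0.25 and 0.42 with any 1 library left out. WIPI2 had 8.58 and 9.37 RPKM in knockdown, against 8.52, 7.66 and 8.34 RPKM in control, and knockdown replicate 1 lay almost on control replicate 1. Its difference was 0.13 (SE 0.15). BECN1 had 7.18 and 6.54 RPKM in knockdown, against 8.25, 5.28 and 9.78 RPKM in control, and its difference of -0.13 (SE 0.28) was 0.05 without control replicate 3. WIPI1 had 13.2 and 12.7 RPKM in knockdown, against 14.2, 12.1 and 13.2 RPKM in control.

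The enzymes that attach LC3 to the membrane did not share a direction. ATG7 is the activating enzyme, ATG3 the conjugating enzyme, and ATG12, joined to ATG5 and held by ATG16L1, directs the last step. The 5 differences ran from -0.21 for ATG16L1 (SE 0.22) to 0.15 for ATG12 (SE 0.33), with a median of 0.05, and 0 of 5 had groups apart. ATG16L1 had 4.71 and 4.56 RPKM in knockdown, against 5.04, 4.58 and 6.98 RPKM in control. ATG12 had 6.72 and 7.34 RPKM in knockdown, against 6.30, 4.21 and 9.30 RPKM in control, so the controls spread more widely than the groups differed. Between these, ATG3 ran from 9.98 to 11.7 RPKM in knockdown and 9.49 to 12.9 RPKM in control, ATG5 from 7.21 to 8.02 RPKM in knockdown and 5.26 to 9.15 RPKM in control, and ATG7 from 3.22 to 3.42 RPKM in knockdown and 2.79 to 3.70 RPKM in control. Without control replicate 2 all 5 differences were below 0 and the median was -0.18. Their summed level was 32.0 and 34.8 RPKM in knockdown, against 35.4, 26.3 and 41.9 RPKM in control.

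The LC3 and GABARAP modifiers were all above 0 and all overlapping. GABARAPL1 was the most abundant at 67.3 and 67.7 RPKM in knockdown, against 60.9, 68.3 and 55.4 RPKM in control, a difference of 0.14 (SE 0.16). MAP1LC3B, the LC3 protein usually followed as a marker of autophagosomes, had 27.9 and 29.2 RPKM in knockdown, against 26.9, 19.7 and 31.6 RPKM in control, a difference of 0.15 (SE 0.23) that was -0.03 without control replicate 2. Its close copy MAP1LC3B2 was listed at 3.29 and 2.08 RPKM in knockdown and 1.99 to 5.23 RPKM in control, and how the counting split reads between them is uncertain. GABARAPL2 had 23.5 and 26.9 RPKM in knockdown, against 24.5, 15.6 and 21.0 RPKM in control, a difference of 0.32 (SE 0.23) that was 0.14 without control replicate 2. MAP1LC3A had 4.33 and 6.42 RPKM in knockdown, against 4.88, 2.91 and 4.05 RPKM in control, a difference of 0.40 (SE 0.28) that was 0.14 without knockdown replicate 3 and 0.66 when knockdown replicate 1 was left out.

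GABARAP, which gives its family its name, was the most variable of the 39 genes. It had 2.18 and 3.40 RPKM in knockdown, against 1.15, 0.679 and 6.60 RPKM in control, from 46 and 117 reads in knockdown and 24, 3 and 293 reads in control. Its difference of 0.43 (SE 0.79) was -0.08 without control replicate 2 and 1.21 when control replicate 3 was left out. A protein-coding model on the same strand, AC120057.2, shares 691 of its 2266 exon bases and was listed at 0 in all 5 libraries, so its level rests on how ambiguous reads were handled, which is not given in the sources used here.

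Of the cargo receptors, OPTN was apart. OPTN, which links ubiquitin-marked mitochondria and bacteria to LC3, had 23.7 and 27.9 RPKM in knockdown, against 18.2, 15.7 and 23.1 RPKM in control. Control replicate 3 lay just below knockdown replicate 1, and the difference was 0.44 (SE 0.21), or 0.32 without control replicate 2. SQSTM1, the p62 protein that gathers ubiquitinated cargo and is itself degraded, had 81.7 and 84.3 RPKM in knockdown, against 76.9, 43.9 and 95.5 RPKM in control. Its knockdown libraries lay inside the control range, and its difference of 0.27 (SE 0.34) was -0.05 without control replicate 2. NBR1, a receptor of similar build, had 17.2 and 13.9 RPKM in knockdown, against 13.4, 13.3 and 17.5 RPKM in control. Opposite-strand genes share exon bases with SQSTM1 (MRNIP, 20.7%), ATG7 (VGLL4, 18.1%), WIPI1 (ARSG, 24.3%) and BECN1 (CNTD1, 12.4%), and the same limit on strand holds there.

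The V-ATPase genes had differences of both signs. ATP6V1H, a regulatory subunit of the cytosolic part on chromosome 8 (ENSG00000047249, 53715557 to 53843558), had 5.28 and 5.12 RPKM in knockdown, against 3.85, 4.33 and 3.85 RPKM in control, a difference of 0.34 (SE 0.16) and 0.31 to 0.39 with any 1 library left out. ATP6V0D1, of the membrane part, had 12.08 and 14.16 RPKM in knockdown, against 12.04, 10.87 and 10.97 RPKM in control, and knockdown replicate 1 nearly equalled control replicate 1. Its difference was 0.20 (SE 0.15), or 0.09 without knockdown replicate 3. ATP6AP1, an accessory protein, had 44.3 and 46.2 RPKM in knockdown, against 47.0, 38.4 and 38.6 RPKM in control, a difference of 0.14 (SE 0.16). ATP6V1A, the catalytic subunit, had 17.47 and 15.03 RPKM in knockdown, against 18.77, 16.00 and 24.75 RPKM in control, a difference of -0.26 (SE 0.22), the lowest of the 39. It was -0.09 without control replicate 3 and -0.40 when control replicate 2 was left out. Subunits of the same part of the pump, ATP6V1A and ATP6V1H, thus had differences of opposite sign, and a test between them was not run.

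**Figure D4:**
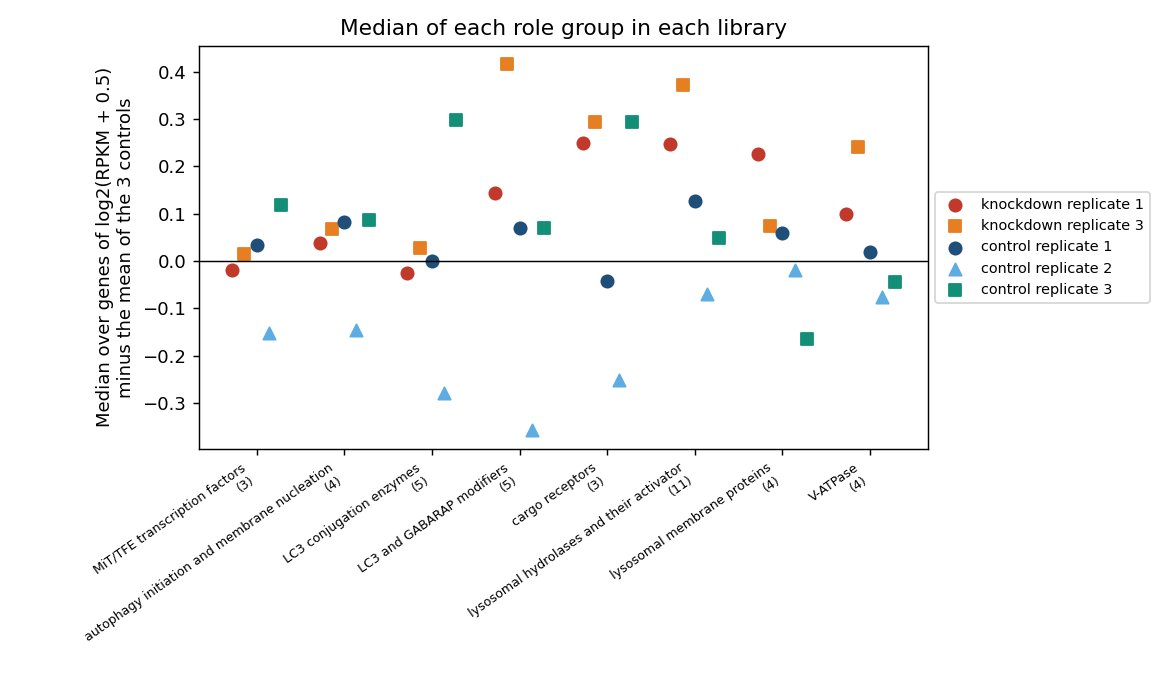
Median over the genes of each role of log2(RPKM + 0.5) minus the mean of the 3 controls (y axis), in each of the 5 libraries, with the number of genes in brackets. For hydrolases both knockdown libraries, at 0.25 and 0.37, lie above the controls at 0.13, -0.07 and 0.05, whereas for LC3 conjugation enzymes they lie between control replicates 2 and 3.

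By library, the roles differed in how far the controls spread. The hydrolase medians, relative to the control mean, were 0.25 and 0.37 in knockdown and 0.13, -0.07 and 0.05 in control. The 36 other hydrolases and activators did not share this separation. Their medians were 0.12 and 0.15 in knockdown and 0.02, -0.18 and 0.17 in control, with control replicate 3 above both knockdown libraries. Those of the V-ATPase were 0.10 and 0.24 in knockdown and 0.02, -0.08 and -0.05 in control, and those of the LC3 and GABARAP modifiers 0.14 and 0.42 in knockdown and 0.07, -0.36 and 0.07 in control. In cargo receptors the knockdown medians were 0.25 and 0.29, and control replicate 3 was also at 0.29. In LC3 conjugation enzymes, at -0.03 and 0.03 in knockdown and 0.00, -0.28 and 0.30 in control, the controls spanned the knockdown libraries on both sides.

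Sites for miR-19 were looked for in the same genes, since the series title names miR-19a, and the direction in which the microRNA was changed is not settled by the labels. A microRNA pairs through its seed with sites in the 3' UTR of a transcript and lowers its stability or translation. The mature sequences, on chromosome 13 and, for the second copy of miR-19b, the X chromosome, are from RefSeq's table for GRCh38.p14 with the seed, bases 2 to 8, in capitals. Both share the seed.
hsa-miR-19a-3p: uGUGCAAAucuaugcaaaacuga
hsa-miR-19b-3p: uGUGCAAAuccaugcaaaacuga
The 7-base match TTTGCAC was in the longest annotated 3' UTR of 7 of the 39 genes, or 17.9%, against 18.1% of 127 other pathway genes and 15.3% of 11764 coding genes tested. Each of the 7 has 1 match, shown in capitals in its transcript context, at chr12:131922273-131922295 (+), chr6:106184930-106184952 (-), chr5:115830143-115830165 (-), chr2:233295368-233295390 (+), chr12:10222239-10222261 (+), chr10:71816338-71816360 (-) and chr3:113810679-113810701 (+) of GRCh38, in the order of the lines.
ULK1: ggcgggtgaggctgcTTTGCACa
ATG5: ccactgacttgtattTTTGCACa
ATG12: aagaatacataggacTTTGCACt
ATG16L1: tttatcacttttaaaTTTGCACt
GABARAPL1: attctatttttgacaTTTGCACa
PSAP: cttcgtgatttttgtTTTGCACt
ATP6V1A: agcaattaaaggctgTTTGCACc
The match is followed by A, the longer 8-base form, in ULK1, ATG5 and GABARAPL1. The site-bearing genes had differences of 0.34 for ULK1, 0.25 for PSAP, 0.15 for ATG12, 0.14 for GABARAPL1, 0.05 for ATG5, -0.21 for ATG16L1 and -0.26 for ATP6V1A, so both directions occurred. Their median was 0.14, against 0.20 for the 32 genes without the match. Among all coding genes tested the medians were -0.09 with the match and 0.01 without it. These medians were not adjusted for UTR length, and its part in them was not tested. Of the hydrolases, PSAP alone has a match, so for the other 10 the values above belong to genes without one in this UTR. For GLA this was fixed in advance, since its longest annotated 3' UTR has 6 bases and cannot hold the match. Other hydrolases also had short 3' UTRs with less room for a match, such as GUSB (213 bases), CTSL (285) and CTSA (370). The median of coding genes tested was 1330 bases, and CTSB (2601) and HEXA (3158) were longer. Shorter matches, to 6 bases of the seed, are present in CTSB, CTSL, CTSZ and HEXA.

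The other genes of the pathway numbered 132 in 5 lists, of which 127 passed the filter (not RETREG1, CLN3, ATP6V1B1, ATP6V1C2 and ATP6V1G2). Of these 73 were above 0, with a median of 0.04, 25 of the 127 were apart upward, against 14.3% of all genes tested, and 10 downward, against 13.6%. These shares of all genes are the background for the counts of each list that follow. Of 36 other hydrolases and activators 24 were above 0, the median was 0.12 (0.07 without control replicate 2), and 11 were apart upward and 2 downward. CTSF, a cysteine protease, had 21.9 and 30.2 RPKM in knockdown, against 18.5, 12.8 and 18.1 RPKM in control, a difference of 0.65 (SE 0.24). CTSS, a cysteine protease of antigen presenting cells, had 2.80 and 2.57 RPKM in knockdown, against 1.60, 1.21 and 2.12 RPKM in control, a difference of 0.59 (SE 0.25). IDUA, the alpha-iduronidase, had 1.43 and 1.37 RPKM in knockdown, against 1.20, 0.128 and 1.05 RPKM in control, so its difference of 0.68 (SE 0.48) leaned on the low value in control replicate 2. Of 20 other membrane and sorting proteins 9 were above 0, the median was -0.04 and 0 were apart.

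Other V-ATPase subunits were above 0 in 10 of 14, with a median of 0.09 that was -0.02 without control replicate 2, and 3 were apart upward and 1 downward. ATP6V0E1, a small subunit of the membrane part, had 128.7 and 159.0 RPKM in knockdown, against 107.2, 86.9 and 96.2 RPKM in control, a difference of 0.57 (SE 0.18). Other autophagy factors divided evenly, 16 of 35 above 0 with a median of -0.02, and 7 were apart upward and 5 downward, against 14.3% and 13.6% of all genes tested. BNIP3, a mitophagy receptor known to be induced by low oxygen, had 70.2 and 82.9 RPKM in knockdown, against 44.2, 30.2 and 49.3 RPKM in control, a difference of 0.91 (SE 0.25). Of the 7 apart upward, only BNIP3 differed by at least 0.5. WDR45, BNIP3L, ATG14, ATG10, TOLLIP and RUBCN, named after their values were seen, differed by less. Of the 5 apart downward, PIK3R4, ATG9A and STX17 differed by at least 0.5, and UVRAG and EPG5, named after their values were seen, by less. PIK3R4, the scaffold of the lipid kinase complex that holds BECN1, had 4.42 and 3.98 RPKM in knockdown, against 6.71, 7.16 and 7.75 RPKM in control, a difference of -0.71 (SE 0.16). ATG9A, a lipid scramblase carried in vesicles, had 9.72 and 5.71 RPKM in knockdown, against 10.5, 12.9 and 10.7 RPKM in control, a difference of -0.57 (SE 0.26). STX17, which fuses autophagosomes with lysosomes, had 3.52 and 2.25 RPKM in knockdown, against 3.77, 3.68 and 6.96 RPKM in control, a difference of -0.62 (SE 0.34). In limma 0 of the 127 passed, and at an unadjusted p under 0.05 6 of 127 were higher, against 3.8% of all genes tested, and 2 were lower, against 2.54%, which is close to the background.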

How the data were processed

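RNA of 6 libraries, 3 labelled knockdown and 3 labelled control, had been sequenced, and the authors deposited 1 table of RPKM values, as the labels' description names it. HISAT2 and GRCh38 are named in the submitters' processing notes, while no counter, annotation or filter is named there. All 58676 IDs matched GENCODE release 29. Multiplied by exon length, 100% of values above 0 in the 5 libraries used came out as whole reads (tolerance 0.002 of a read).

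The fit was limma 3.58.1 (R 4.3.3) on log2(RPKM + 0.5) with its trend option, two-sided with Benjamini-Hochberg adjustment, on 2 knockdown and 3 control libraries without covariates. A gene was kept if 3 or more libraries reached 0.5 RPKM. The code was tested on simulated data. Members and lists were chosen with earlier results of these data known. All members are named, with values per library for those whose groups do not overlap and the 5 of smallest p. Of each other list, up to 3 genes in each direction are named whose groups do not overlap and whose difference is at least 0.5. Alternatives covered pseudocounts (0.1 and 1), filters, scalings, the trend, a replicate block, voom on recovered reads with and without sample weights, removal of trends against exon length and GC content, all 6 columns, and leaving out each library. Figures were drawn with matplotlib 3.10.9.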

Additional observations from a re-analysis of the deposited data

How the results depend on the processing

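No member passed an adjusted p of 0.05 in limma under any of the 17 alternatives, and the lowest adjusted p of a member was 0.279, with voom and sample weights. Over all genes, 0 were called, or 4 by voom with sample weights and 40 with the replicate block, which leaves 1 residual degree of freedom. Replicate numbers are not shown to pair the samples, with correlations of deviations of -0.17 for replicate 1 and 0.02 for replicate 3. Pseudocounts, filters, scalings and the trend setting left 33 members above 0. Leaving out 1 library gave 24 to 34, and removing length and GC trends, 31. The LC3 conjugation median was -0.176 with the replicate block and ran from -0.176 to 0.163 with 1 library left out. In the block control replicate 2 has no partner, so the block gives the same differences as leaving that library out. With length and GC trends removed, the transcription factor median was -0.064 and the hydrolase median 0.172, and the cause was not tested. With all 6 columns, where the numbers of knockdown replicate 2 are out of order, the median of all genes was -0.91. There the medians were -0.570 for transcription factors, -1.354 for initiation, -0.914 for LC3 conjugation, -1.573 for modifiers, -1.585 for cargo receptors, -1.784 for hydrolases, -1.720 for membrane proteins, -1.107 for V-ATPase and -1.497 for all members. Differences turned to -0.201 for ULK1, -0.774 for MAP1LC3A, -1.573 for GABARAPL2, -1.460 for OPTN, -1.911 for CTSA, -1.662 for CTSB, -0.136 for CTSD, -2.281 for CTSL, -2.036 for CTSZ, -1.594 for NEU1, -2.931 for PSAP, -1.693 for GAA, -1.944 for LAMP1, -1.391 for CD63, -1.383 for ATP6V0D1 and -0.831 for ATP6V1H. A turn of sign was counted only where the difference exceeded its SE. With 2 knockdown libraries and 1948940 reads in control replicate 2, small changes are not resolved.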

Other observations

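Genes that control autophagy through mTORC1 and AMPK, 22 in all and all tested, were above 0 in 14 and below in 8, with a median difference of 0.15 that was 0.03 without control replicate 2 and 0.27 without knockdown replicate 1. RPTOR, the scaffold of mTORC1, had 2.07 and 1.57 RPKM in knockdown, against 2.95, 2.79 and 2.88 RPKM in control, a difference of -0.55 (SE 0.19). FNIP2, a partner of folliculin, had 1.75 and 1.20 RPKM in knockdown, against 1.92, 2.88 and 2.76 RPKM in control, a difference of -0.61 (SE 0.25). In both genes the knockdown libraries lay below every control, and the list had 2 such genes, against 13.6% of all genes tested. Above every control were 4 of the 22, against 14.3% of all genes tested. These were MLST8, FLCN, RRAGD and AKT1S1, with differences of 0.43, 0.41, 0.36 and 0.17, all below the size of 0.5 for giving values per library and named after their values were seen. The highest of the list, LAMTOR2, a part of the complex that holds mTORC1 on the lysosome, differed by 0.69 with overlapping libraries and is named after its value was seen. In limma 0 of the 22 passed. An unadjusted p under 0.05 was reached by 1 gene that was higher, against 3.8% of all genes tested, and 1 that was lower, against 2.54%.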
